A study of Mus musculus with 15 samples.

Results

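Transcripts of 4T1 cells that carried the S42A form of Twist1 were compared with those of 4T1 cells that carried wild-type Twist1. 4T1 is a mouse mammary carcinoma line that metastasises in mice. The comparison used 6 of the 15 arrays of the study, 3 from each of the 2 lines, chosen by the sample titles alone. The S42A line was derived from the Twist1-depleted line (Tw1KD) by compensatory expression of Twist1 with alanine in place of serine 42, and the wild-type line from the same depleted line by compensatory expression of unaltered Twist1. The 9 other arrays, 3 each from a line with the S42D form in Tw1KD cells, from Tw1KD and from parental 4T1 cells, entered the fit for its error estimate and give the levels quoted for those lines. For the S42D arrays the genotype field lists S42A and S42D together, and the title alone tells them apart. According to the labels every line was grown to 70% confluency, in DMEM that held puromycin at 4 µg/ml and G418 at 800 µg/ml. The labels do not say how Twist1 was depleted, how the constructs were introduced, or whether a line is a clone or a pool. Each form of Twist1 was represented by a single line, so the substitution and any other difference between the 2 lines cannot be told apart.

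Twist1 is a basic helix-loop-helix transcription factor of the mesoderm and neural crest. In carcinoma cells it binds E-boxes, represses epithelial genes such as E-cadherin and is known as a driver of epithelial-mesenchymal transition. Serine 42 is a known target of the kinase Akt, and alanine at that place cannot be phosphorylated.

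The values are log2 intensities as deposited, and a difference of 1 is a change of 2-fold. Differences are S42A minus wild type with their standard error after ±, from limma's moderated test on 3 arrays per line with Benjamini-Hochberg adjustment over 19937 genes. A gene was called at an adjusted p under 0.05. The dimmest 25% of all line means lay below 5.497, and no detection calls were used. A mean in that range is called dim below: it is not shown to be above array background, so the size and rank of a difference from it are uncertain. Whether the 3 arrays of a line came from separate cultures is not stated, so the p-values measure only the spread between these arrays. The arrays of 1 line correlated at 0.998 to 0.999, and arrays of the S42A line with arrays of the wild-type line at 0.984 to 0.985. The median standard deviation of a gene was 0.068 in the S42A line, against 0.053 in the wild-type line. With spreads this small 7978 genes were called, or 40.0% of those tested, of which 3986 (20.0%) were higher and 3992 (20.0%) lower in the S42A line. The arrays of the 2 lines did not overlap for 7858 of the called genes (39.4% of those tested). Most called differences were small: 1768 reached 1.5-fold, 631 reached 2-fold and 134 reached 4-fold. The 2-fold group held 294 genes that were higher (1.47% of those tested) and 337 that were lower (1.69%). The counts in gene lists below stand against these shares. After median centring of the arrays fewer genes were called higher, as given below.

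Twist1 itself was measured by probe set 10395320. It read 8.60, 8.71 and 8.80 in the S42A line, against 8.35, 8.49 and 8.16 in the wild-type line. Every S42A array lay above every wild-type array, by 0.37 ± 0.080 on average (adjusted p = 0.0016). The depleted line read 7.23 to 7.47, below both. The S42D line read 8.96 to 9.07 and parental cells 9.01 to 9.07. Which part of the probe set's signal comes from the introduced transcript is not known, and the part of this difference in the results below was not tested.

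Markers of an epithelial cell were mixed in both lines. Krt8 and Krt18, which encode the keratins of simple epithelia, read 12.35 to 13.11 over the S42A arrays and 12.29 to 13.20 over the wild-type arrays. Epcam, an epithelial adhesion molecule, read 5.47 to 5.64 in the S42A line, against 5.64 to 5.69 in the wild-type line, against 7.91 to 10.10 in parental and Tw1KD cells. Vim, the mesenchymal intermediate filament vimentin, read 13.49 to 13.5 in the S42A line, against 13.52 to 13.58 in the wild-type line (-0.060 ± 0.033, adjusted p = 0.18). In bulk RNA of this kind, a change in the number of cells of a type and a change in the RNA per cell cannot be told apart. Among markers of other cells, 3 of 14 macrophage and leukocyte genes were higher and 2 lower, with a median of 0.058. Those higher were Lyz2 (1.19, dim in wild type), Cd68 (0.47) and Csf1r (0.19, dim in both lines and lost in 8 of 14 other settings), and those lower Cd53 (-4.02) and Cd14 (-0.79). Of 10 endothelial genes 2 were higher and none lower, Cdh5 (0.91) and Erg (0.28, dim in wild type). Of 10 fibroblast genes 3 were higher and none lower, Pdgfra, Dcn and Col1a2. The summed intensity of the fibroblast list was 11.58 to 11.61 (log2) in the S42A line and 10.97 to 11.02 in the wild-type line. The endothelial sum was 9.43 to 9.55 in the S42A line, against 9.25 to 9.33 in the wild-type line. The macrophage and leukocyte sum was 11.01 to 11.07 in the S42A line, against 11.38 to 11.40 in the wild-type line. Such sums are weighted to bright genes, among them Cd53 in the wild-type line and Pdgfra in both lines. They do not show a shift of a whole list. The defining leukocyte gene Ptprc (CD45) stayed at 5.14 to 5.37 in the S42A line, against 5.08 to 5.16 in the wild-type line, and the macrophage gene Adgre1 at 4.71 to 4.79 and 4.67 to 4.72. The endothelial gene Pecam1 read 5.45 to 5.75 in the S42A line, against 5.52 to 5.56 in the wild-type line. Ptprc and Adgre1 were dim in both lines.

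**Figure D1:**
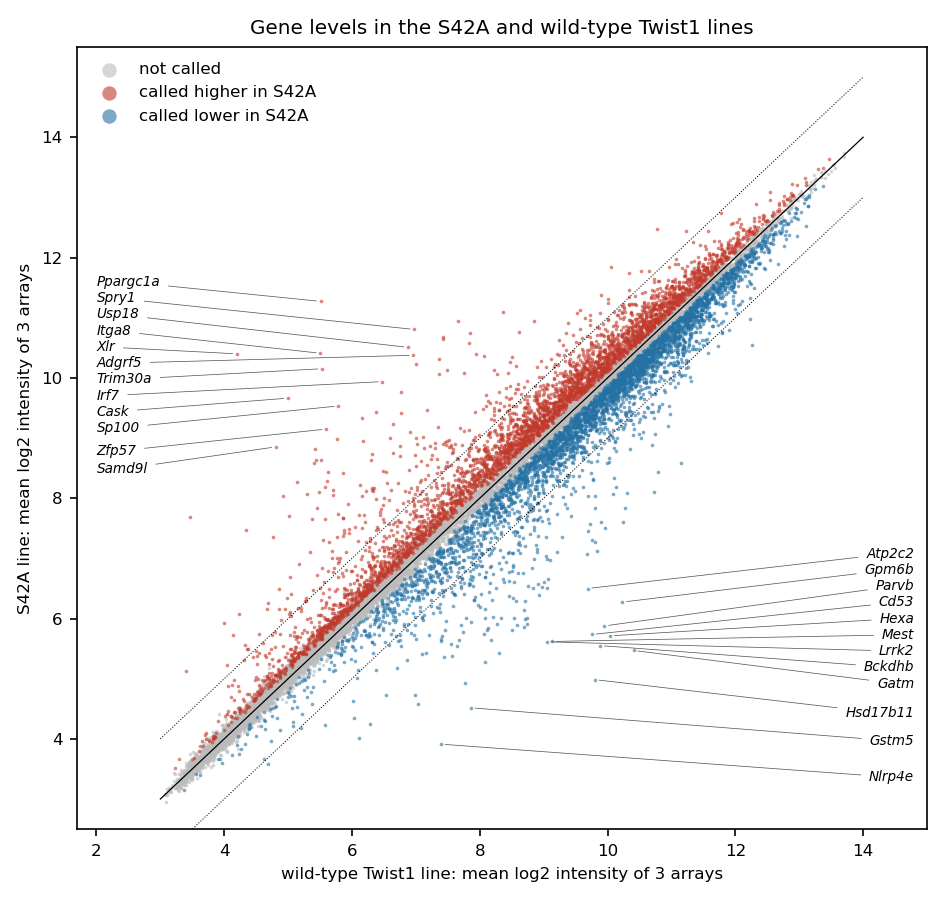
Mean log2 intensity of each of the 19937 genes in the S42A line (vertical axis) and the wild-type Twist1 line (horizontal axis), 3 arrays each. Red points were called higher and blue points lower in the S42A line, the dotted lines mark a 2-fold difference, and the 12 largest rises and 12 largest falls are named.

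Interferon response genes were called in the largest share among the lists examined. Type I interferon acts on a cell-surface receptor with JAK kinases, and a complex that contains IRF9 then binds the interferon-stimulated response element (ISRE) in front of antiviral genes. Of 42 measured interferon effector genes 40 were higher in the S42A line and none was lower, against 20.0% of all genes called higher. Their median difference was 1.39, against 0.041 over all genes, and 27 of the 42 were at least 2-fold higher. The 2 that were not called were Eif2ak2, which encodes the RNA-activated kinase PKR (0.18 ± 0.070, adjusted p = 0.061), and Tor3a (-0.05).

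The sequences before the starts of 4 of these effectors are shown because they are the largest rises whose promoters hold the ISRE letters. The RefSeq promoter table for GRCm38.p6, which runs from 250 bases before to 50 after each start, held 30 of the 42 effectors. Both strands were searched for 2 runs of GAAA with any 2 bases between them. Matches are in capitals below, and read as runs of TTTC where they lie on the other strand. The 250 bases before the start are Trim30a at chr7:104465194-104465443 (minus strand), Rsad2 at chr12:26456453-26456702 (minus strand), Ifit1 at chr19:34640639-34640888 (plus strand) and Ifit3 at chr19:34583279-34583528 (plus strand), each written 5′ to 3′ on the gene's strand.
Trim30a: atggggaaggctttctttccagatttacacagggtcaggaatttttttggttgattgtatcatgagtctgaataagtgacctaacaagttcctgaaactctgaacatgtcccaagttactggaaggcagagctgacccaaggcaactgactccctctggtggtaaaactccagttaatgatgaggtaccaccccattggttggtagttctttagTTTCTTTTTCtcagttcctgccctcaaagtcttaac
Rsad2: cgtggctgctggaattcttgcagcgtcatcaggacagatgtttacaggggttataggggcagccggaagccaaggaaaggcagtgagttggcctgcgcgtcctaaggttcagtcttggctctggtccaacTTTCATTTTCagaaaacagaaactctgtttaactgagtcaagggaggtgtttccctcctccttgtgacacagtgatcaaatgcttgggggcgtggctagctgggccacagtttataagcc
Ifit1: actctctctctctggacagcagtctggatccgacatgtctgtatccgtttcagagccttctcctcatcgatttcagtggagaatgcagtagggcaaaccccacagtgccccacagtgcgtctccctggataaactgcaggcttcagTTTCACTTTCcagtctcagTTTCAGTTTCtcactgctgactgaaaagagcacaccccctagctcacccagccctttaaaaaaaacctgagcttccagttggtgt
Ifit3: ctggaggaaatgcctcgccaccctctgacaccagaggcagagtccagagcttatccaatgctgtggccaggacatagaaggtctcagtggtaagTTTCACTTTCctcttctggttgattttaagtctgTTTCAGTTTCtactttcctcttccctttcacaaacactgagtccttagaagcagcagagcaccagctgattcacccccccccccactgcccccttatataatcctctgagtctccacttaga
Trim30a and Rsad2 had 1 match each in these windows, and Ifit1 and Ifit3 had 2 each. The table lists a second start for Trim30a, and the 250 bases before it, at chr7:104446126-104446375 (minus strand), had no match. In all, 14 of the 30 effectors held the letters in a promoter (46.7%), against 3.99% of the 27025 genes in the table. Among the MHC class I genes 3 of 11 held them (27.3%), and among interferon signalling genes 4 of 24 (16.7%). A match is a description of the letters and not a site of binding.

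Trim30a, a tripartite-motif gene of the mouse that is induced by interferon, read 10.08, 10.20 and 10.17 in the S42A line, against 5.55, 5.58 and 5.46 in the wild-type line. The arrays were far apart, with a difference of 4.62 ± 0.089 (24.6-fold, adjusted p = 8.5e-14). Trim30a has close relatives beside it in the mouse genome, so its own share of the signal is uncertain. Rsad2 encodes viperin, an antiviral enzyme. It read 8.08, 8.18 and 7.97 in the S42A line, against 5.23, 5.29 and 5.39 in the wild-type line (2.77 ± 0.057, adjusted p = 1.4e-13). Ifit1, which encodes a protein that binds viral RNA caps, read 9.32, 9.55 and 9.40 in the S42A line, against 6.91, 6.75 and 6.61 in the wild-type line (2.66 ± 0.10, adjusted p = 7.3e-11). Its relative Ifit3 read 7.63, 7.64 and 7.71 in the S42A line, against 5.42, 5.34 and 5.35 in the wild-type line (2.29 ± 0.059, adjusted p = 1.4e-12). No S42A array of these 4 genes came near a wild-type array.

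Usp18, the protease that removes ISG15 and restrains the interferon receptor, read 10.42, 10.59 and 10.51 in the S42A line, against 6.77, 6.97 and 6.88 in the wild-type line (3.63 ± 0.069, adjusted p = 8.5e-14). Samd9l, an antiviral and growth-restraining gene, read 8.72, 8.97 and 8.88 in the S42A line, against 4.76, 4.80 and 4.86 in the wild-type line (4.05 ± 0.085, adjusted p = 1.8e-13). Samd9l, Rsad2 and Ifit3 were dim in the wild-type line, as was Mx1 in both lines. Sp100, a component of PML nuclear bodies, read 9.48, 9.51 and 9.61 in the S42A line, against 5.88, 5.67 and 5.81 in the wild-type line (3.75 ± 0.093, adjusted p = 1e-12). The RNA sensors also rose. Ddx58, which encodes RIG-I, read 10.74, 10.71 and 10.80 in the S42A line, against 9.33, 9.33 and 9.37 in the wild-type line (1.41 ± 0.055), and Ifih1, which encodes MDA5, read 7.37 to 7.51 and 6.68 to 6.84 in those lines (0.73 ± 0.073). Smaller rises were those of the nuclear-body gene Pml (0.26), Ifi27 (0.39) and the antiviral GTPase gene Mx1 (0.40).

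The signalling genes upstream rose in part. Of 25 measured, 16 were higher and 5 lower, with a median difference of 0.18. Irf7, the transcription factor that amplifies type I interferon, read 9.83, 9.97 and 10.01 in the S42A line, against 6.27, 6.31 and 6.85 in the wild-type line. The difference was 3.46 ± 0.13 (adjusted p = 6.4e-11), and the highest wild-type array lay well below the lowest S42A array. The genes around Irf7 on chromosome 7 had a median difference of 0.31, the largest around any named gene. Irf9, which encodes the DNA-binding subunit of the complex on the ISRE, read 9.52, 9.64 and 9.62 in the S42A line, against 8.27, 8.25 and 8.25 in the wild-type line (1.34 ± 0.040, adjusted p = 6.4e-12). Stat2 was 0.67 ± 0.049 higher, the kinase gene Jak2 1.35 ± 0.058 higher and the double-stranded RNA receptor gene Tlr3 1.90 ± 0.066 higher. Sting1, the adaptor of cytosolic DNA sensing, was 0.70 ± 0.034 higher. Lower were Cgas, the DNA sensor that acts on Sting1 (-0.30 ± 0.11, adjusted p = 0.043), Tbk1, the kinase below both (-0.39 ± 0.074), the interferon-gamma receptor gene Ifngr1 (-0.62 ± 0.081), and the feedback inhibitors Socs1 (-0.25 ± 0.052) and Socs3 (-0.44 ± 0.054). The ligand gene Ifnb1, which encodes interferon beta, read 4.64 to 4.66 in the S42A line, against 4.62 to 4.73 in the wild-type line, dim in both. Its arrays overlapped, and the difference was -0.011 ± 0.087 (adjusted p = 0.94).

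**Figure D2:**
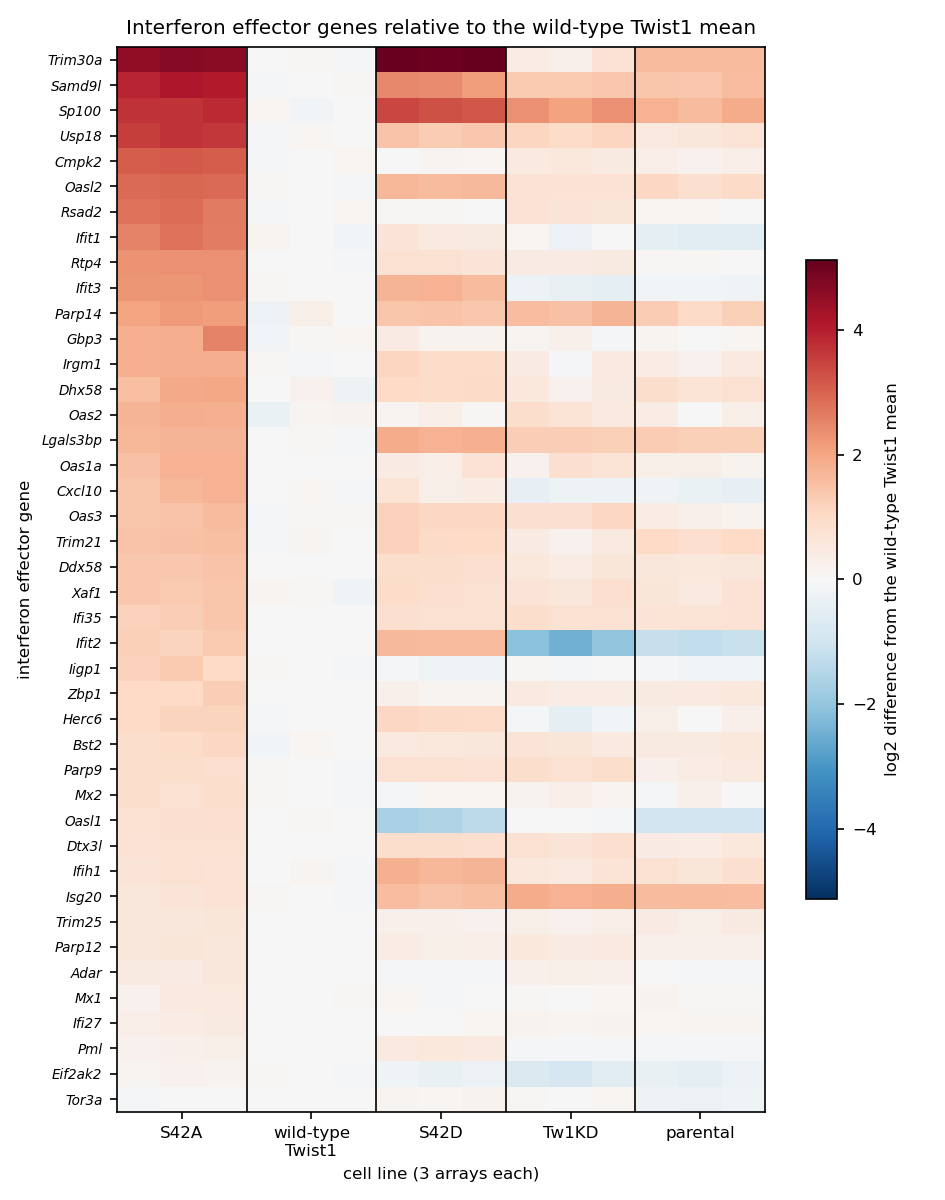
Log2 difference of each array of the 5 lines from the wild-type Twist1 mean for the 42 interferon effector genes, ordered by the S42A difference. The S42A arrays are red for all genes down to Pml, and Trim30a and Sp100 are also high in the S42D line.

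Genes of the MHC class I list mostly moved the same way. The listed class I heavy chain genes H2-K1, H2-D1 and H2-T23 were not among those measured. Of 14 measured genes 11 were higher and none was lower, with a median difference of 0.59. Psmb8, a catalytic subunit of the immunoproteasome, read 8.89, 9.18 and 9.24 in the S42A line, against 6.99, 7.03 and 6.68 in the wild-type line (2.20 ± 0.12, 4.60-fold, adjusted p = 2.9e-09). It alone of this list passed 2-fold. Tap1, which encodes a subunit of the peptide transporter, read 8.87, 8.97 and 9.12 in the S42A line, against 8.30, 8.39 and 8.30 in the wild-type line (0.66 ± 0.065). The trimming peptidase gene Erap1 was 0.98 higher and the peptide-loading gene Tapbp 0.83 higher. Those not called were B2m, the light chain of class I molecules (0.044 ± 0.036, adjusted p = 0.36), Calr (-0.03) and Pdia3 (-0.12).

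For the effectors, levels in the other lines place the wild-type line low and the S42A line high. The wild-type line was itself below the depleted line for 29 of the 42 effectors and above it for 5, with a median of -0.44, against 24.5% and 23.5% of all genes called. The S42A line was above the depleted line for 37 effectors and below it for 1, with a median of 0.90 (22.8% and 19.7% of all genes). Both comparisons share arrays with that of S42A and wild type. The S42D line was also above the wild-type line, with 31 effectors higher and 2 lower and a median of 0.76 (20.7% and 22.6% of all genes). Against the S42D line, the S42A line had 32 effectors higher and 6 lower, with a median of 0.52 (19.1% and 17.1% of all genes). Usp18 read 10.42 to 10.59 in S42A, 8.18 to 8.32 in S42D, 6.77 to 6.97 in wild type, 7.82 to 7.97 in Tw1KD and 7.39 to 7.58 in parental cells. Rsad2 stood out in the S42A line alone: it read 5.33 to 5.36 in S42D, 5.94 to 6.04 in Tw1KD and 5.31 to 5.42 in parental cells. Trim30a instead was highest in S42D, at 10.56 to 10.65, and read 5.78 to 6.25 in Tw1KD and 7.17 on each parental array. Of the 14 MHC class I genes 2 were higher and 5 lower in S42A than in S42D. Against the depleted line, 4 of them were higher and 5 lower in S42A, with a median of 0.022. In wild type 2 were higher and 11 lower than in the depleted line, with a median of -0.57. Of the 25 interferon signalling genes, 11 were higher and 7 lower in S42A than in the depleted line (median 0.0069). In wild type 8 of these were higher and 15 lower than in the depleted line (median -0.29).

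The 12 largest rises held 5 effectors or signalling genes of the interferon response described above: Trim30a, Samd9l, Sp100, Usp18 and Irf7. Xlr, an X-linked lymphocyte-regulated gene, read 10.42, 10.40 and 10.37 in the S42A line, against 4.70, 4.17 and 3.71 in the wild-type line. Its measured difference of 6.20 ± 0.20 (adjusted p = 1.1e-11) was taken against a dim wild-type level. Near-identical Xlr copies make it uncertain which gene was read. The other 3 lines read 8.40 to 9.83, far nearer the S42A line. Ppargc1a encodes PGC-1α, the coactivator that drives mitochondrial gene expression. It read 11.26, 11.30 and 11.25 in the S42A line, against 5.58, 5.22 and 5.73 in the wild-type line (5.76 ± 0.11, 54.3-fold, adjusted p = 1.2e-13). Parental cells read 5.29 to 5.70 for Ppargc1a, Tw1KD cells 7.19 to 7.30 and S42D cells 8.86 to 9.0, so the S42A level was the highest of the 5 lines. Itga8, the integrin α8 subunit, read 10.38, 10.43 and 10.42 in the S42A line, against 5.47, 5.34 and 5.70 in the wild-type line (4.91 ± 0.069, adjusted p = 1.1e-14). For Itga8 it was the wild-type line that stood apart, with 8.96 to 10.08 in the 3 other lines.

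Cask, a membrane-associated scaffold kinase of cell junctions and synapses, read 9.56, 9.80 and 9.63 in the S42A line, against 4.95, 5.04 and 5.0 in the wild-type line (4.67 ± 0.10, adjusted p = 2.6e-13). The wild-type level was dim. S42D cells read 5.04 to 5.40 for it, Tw1KD cells 5.82 to 6.13 and parental cells 7.0 to 7.24, and no array of these lines reached the S42A arrays. Adgrf5, an adhesion G-protein-coupled receptor gene, read 10.34, 10.36 and 10.43 in the S42A line, against 7.0, 7.0 and 6.88 in the wild-type line (3.42 ± 0.092). Its level in S42D was 8.32 to 8.48, between these lines. Zfp57, a zinc-finger protein that keeps imprinted methylation, read 9.11, 9.15 and 9.19 in the S42A line, against 5.69, 5.39 and 5.71 in the wild-type line (3.55 ± 0.092). S42D read 9.30 to 9.37 for Zfp57, and the S42A minus S42D difference was -0.18 (adjusted p = 0.15).

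Several of the 12 largest falls were shared with another line. Gatm, the first enzyme of creatine synthesis, read 5.51, 5.32 and 5.58 in the S42A line, against 10.37, 10.45 and 10.41 in the wild-type line (-4.94 ± 0.11, adjusted p = 4.7e-13). S42D cells read 5.34 to 5.67. Gatm and Hsd17b11 were dim in the S42A line. Hsd17b11, a steroid dehydrogenase of lipid droplets, read 5.10, 4.79 and 5.06 in the S42A line, against 9.79, 9.83 and 9.79 in the wild-type line (-4.82 ± 0.098, adjusted p = 1.4e-13). Tw1KD, the line from which both were made, was also low for Hsd17b11, at 4.83 to 5.31, while S42D and parental cells read 10.52 to 10.83. Cd53, a leukocyte tetraspanin gene, had the same form, with 5.67 to 5.77 in S42A, 11.33 to 11.40 in S42D, 9.74 to 9.78 in wild type and 5.24 to 5.67 in Tw1KD. Gpm6b, a membrane proteolipid, and Mest, an imprinted gene, were low in both S42A and Tw1KD as well, and their differences from wild type were -3.96 ± 0.063 and -3.51 ± 0.063.

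Another set of the largest falls was low in the S42A line and high in each of the other 4 lines. Bckdhb, a subunit of the branched-chain keto acid dehydrogenase, read 5.83, 5.57 and 5.25 in the S42A line, against 9.83, 9.92 and 9.91 in the wild-type line (-4.34 ± 0.11, adjusted p = 1.4e-12). In the 3 other lines it read 9.90 to 10.32. Hexa, a lysosomal hexosaminidase subunit, read 6.16, 5.46 and 5.52 in the S42A line, against 10.01, 10.08 and 10.03 in the wild-type line (-4.33 ± 0.13), with 9.76 to 10.68 elsewhere. Parvb, which encodes β-parvin of focal adhesions, read 5.99, 5.78 and 5.85 in the S42A line, against 9.93, 9.96 and 9.96 in the wild-type line (-4.07 ± 0.051), with 8.81 to 9.92 elsewhere. Lrrk2, a kinase known from Parkinson's disease, read 5.62, 5.66 and 5.55 in the S42A line, against 9.04, 9.14 and 8.97 in the wild-type line (-3.44 ± 0.058), with 8.72 to 9.81 elsewhere. Atp2c2, a calcium and manganese pump of the secretory pathway, read 6.57, 6.53 and 6.40 in the S42A line, against 9.67, 9.71 and 9.69 in the wild-type line (-3.19 ± 0.049). These 5 genes had S42A arrays that overlapped with no array of another line. Nlrp4e and Gstm5 completed the 12 falls, at -3.48 ± 0.14 and -3.35 ± 0.081, with dim levels in the S42A line, and both belong to families of close relatives.

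**Figure D3:**
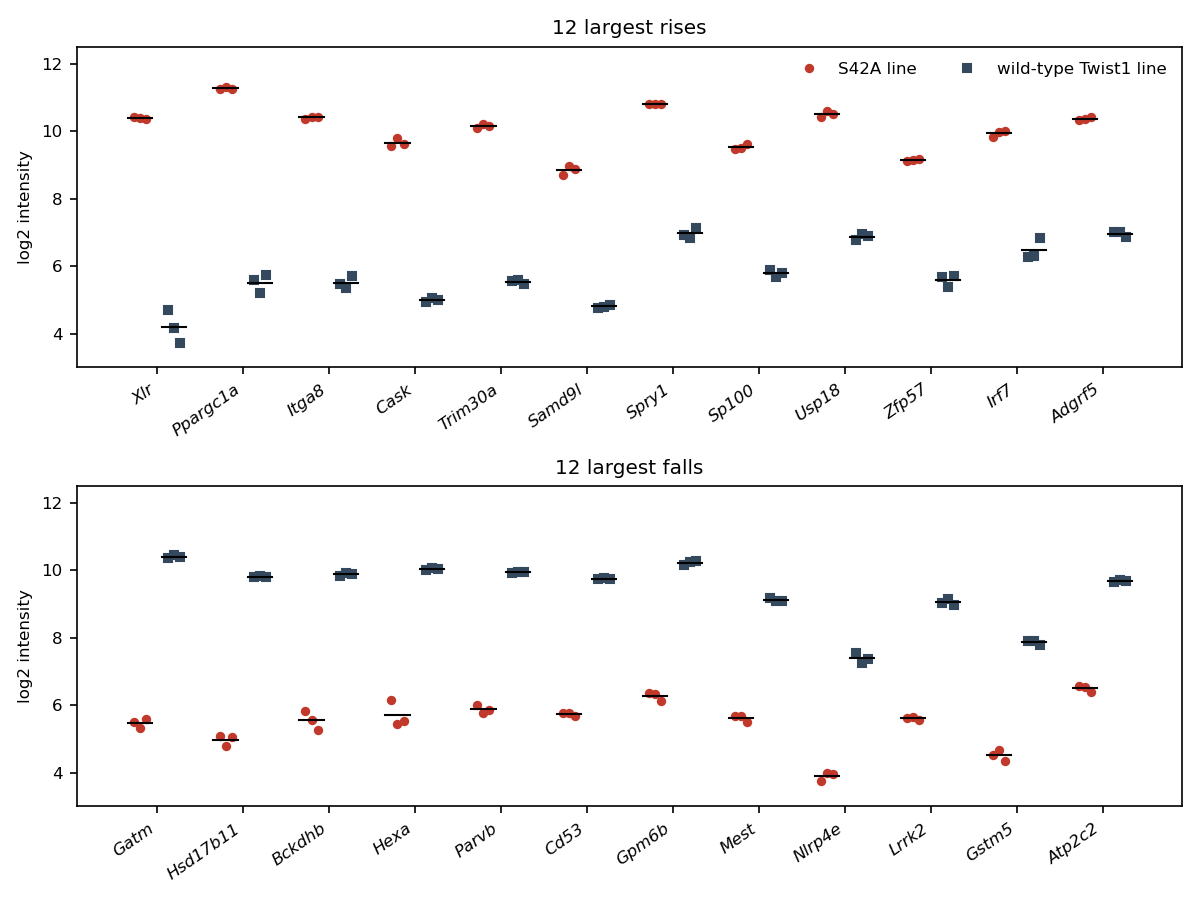
Log2 intensity on each array of the S42A line (circles) and the wild-type Twist1 line (squares) for the 12 largest rises (upper panel) and 12 largest falls (lower panel), with bars at the mean of 3 arrays. In every gene shown the arrays of the lines are separate, and Xlr has the widest spread, from 3.71 to 4.70 in the wild-type line.

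Epithelial genes moved in both directions. Junction genes were called higher for 8 of 35 and lower for 13, with a median of -0.05. The 5 that changed by 2-fold or more were all lower. Cdh1, which encodes E-cadherin and is a classical Twist1 target, read 6.41, 6.26 and 6.33 in the S42A line, against 8.52, 8.52 and 8.52 in the wild-type line (-2.18 ± 0.045, 4.54-fold lower, adjusted p = 1.4e-13). Cdh1 in S42D lay between these lines, at 7.46 to 7.58, and in Tw1KD and parental cells above both, at 11.45 to 11.46 and 10.29 to 10.33. Cldn4, a tight-junction claudin, read 7.50, 7.25 and 7.17 in the S42A line, against 9.75, 9.79 and 9.75 in the wild-type line (-2.46 ± 0.12). Dsp, which encodes the desmosomal plaque protein desmoplakin, read 6.11, 5.88 and 6.03 in the S42A line, against 8.31, 8.38 and 8.32 in the wild-type line (-2.33 ± 0.087). Perp (-1.52, dim in S42A) and Cldn3 (-1.13) completed the set. Those that rose were the surface proteases and inhibitors Prss8 (0.99) and Spint2 (0.76), the claudins Cldn9 (0.74) and Cldn1 (0.54, dim in both lines), the tight-junction scaffold Tjp1 (0.40), the plakophilins Pkp2 (0.39) and Pkp3 (0.14), and Ocln (0.33).

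Among 11 keratins, Krt19, a keratin of simple epithelia, was lower (-2.73 ± 0.081), as was Krt80 (-1.04), and Krt7 (0.99) and Krt20 (0.31) were higher, while 4 keratins were called higher with array weights. Krt19 read 6.24, 5.96 and 5.83 in the S42A line, against 8.80, 8.73 and 8.69 in the wild-type line. Of 19 regulators of the epithelial state 3 were higher and 5 lower. Grhl2, a grainyhead factor that sustains Cdh1, read 5.86, 5.84 and 6.15 in the S42A line, against 7.94, 7.91 and 7.73 in the wild-type line (-1.91 ± 0.086). The pioneer factor gene Foxa1 read 6.81, 6.76 and 6.73 in the S42A line, against 8.44, 8.46 and 8.48 in the wild-type line (-1.69 ± 0.083). Klf4 (-0.45), Klf5 and Esrp2 also fell. The regulators that rose were Tfap2c (0.66), Tfap2a (0.42) and Gata3 (0.29). In the RefSeq promoters 16 of 20 junction genes held an E-box, CANNTG (80.0%), against 75.0% of all genes in the table. The narrower letters CATNTG, which are included in that motif and were searched on both strands, were held by 5 of the 20 (25%), against 42.6% of all genes.

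Mesenchymal genes also moved in both directions. Of 23 transcription factors of epithelial-mesenchymal transition, 6 were higher and 6 lower, and none reached 2-fold in either direction. Id4, an inhibitor of basic helix-loop-helix factors, rose most (0.997 ± 0.076), while its relatives Id1 (-0.40) and Id3 (-0.22) fell and Id2 (0.44) rose. Zeb2 (-0.44) and Foxc2 (-0.57) fell, and Tcf4, a partner of Twist1, rose (0.53). Zeb1 read 5.32 to 5.36 in the S42A line, against 5.18 to 5.36 in the wild-type line (0.079 ± 0.058, adjusted p = 0.32), and Snai2 was 0.057 ± 0.064 (adjusted p = 0.53). Of 22 mesenchymal markers 6 rose and 6 fell. F13a1, the transglutaminase factor XIII A, read 10.95, 10.94 and 10.96 in the S42A line, against 7.71, 7.68 and 7.59 in the wild-type line (3.29 ± 0.074), and the matrix protein gene Postn, dim in both lines, was 0.70 higher. Fn1, which encodes fibronectin, read 12.84 to 12.86 in the S42A line, against 13.09 to 13.17 in the wild-type line, lower by a small step that was larger than its spread (-0.28 ± 0.037, adjusted p = 2.4e-05). The ectonucleotidase gene Nt5e (-1.03) and Pdgfrb (-1.08) fell. Cdh2, N-cadherin, was not called (0.12 ± 0.061, adjusted p = 0.14). It was dim in both lines, as were Zeb1 and Snai2.

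Of 24 collagens and proteoglycans 8 were higher, 1 was lower and 15 were not called, with a median of 0.12. The called share of 37.5% was below the 40.0% of all genes. Of the fibril-forming chains Col1a2 was called (0.25), and Col1a1, Col3a1, Col5a1, Col5a2 and Col11a1 were not. Col12a1, a fibril-associated collagen, read 6.65, 6.57 and 6.60 in the S42A line, against 5.54, 5.55 and 5.59 in the wild-type line (1.05 ± 0.058). The small proteoglycan genes Ogn (0.61), Prelp (0.57) and Dcn (0.46, dim in wild type) rose, and Bgn, which encodes biglycan, fell (-0.86 ± 0.094). For Ogn and Bgn the S42D line was far higher than both, at 8.89 to 9.22 and 10.81 to 10.85. Pdgfra, Dcn and Col1a2 are the called members of the fibroblast list whose sum was given above. The call of Col1a2 was lost in 9 of 15 other settings, and the part of that list in these rises was not tested.

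Platelet-derived growth factor signalling drives mesenchymal and carcinoma cells through receptor tyrosine kinases and Akt. Its ligand gene Pdgfc read 8.60, 8.67 and 8.61 in the S42A line, against 5.55, 5.35 and 5.66 in the wild-type line (3.11 ± 0.073, adjusted p = 5.4e-13), while S42D read 10.94 to 11.04. The receptor gene Pdgfra, known as a Twist1 target, read 10.82, 10.88 and 10.84 in the S42A line, against 9.83, 9.88 and 9.78 in the wild-type line (1.01 ± 0.043, 2.02-fold, adjusted p = 2.2e-10). The other receptor gene, Pdgfrb, went the other way, with 6.90, 6.89 and 6.79 in the S42A line, against 7.95, 7.93 and 7.93 in the wild-type line (-1.08 ± 0.076). Of 40 growth factor, receptor and PI3K-Akt genes 17 were higher and 10 lower, with a median of 0.06. Pik3r3, a regulatory PI3K subunit, was 1.40 ± 0.085 higher and Igf1r, the IGF-1 receptor, 0.68 ± 0.055 higher. The adaptor gene Irs1 was -0.99 ± 0.061 and Rictor, a subunit of mTOR complex 2, -0.60. Akt2 rose (0.43) and Akt1 fell (-0.20).

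The negative regulators of ERK were led by Spry1, a Sprouty inhibitor. It read 10.81, 10.81 and 10.80 in the S42A line, against 6.94, 6.85 and 7.14 in the wild-type line (3.83 ± 0.057, 14.2-fold, adjusted p = 1.3e-14). S42D was higher still, at 12.04 to 12.06, and parental cells read 11.32 to 11.41. Of the 16 genes that respond to or restrain ERK, 4 rose (Spry1, Spred3, Spry4 and Spry2) and 8 fell. Egr1, an immediate-early target of ERK, read 8.10, 8.11 and 8.02 in the S42A line, against 9.46, 9.42 and 9.42 in the wild-type line (-1.36 ± 0.049). Etv5 (-0.90) and the phosphatase genes Dusp5 (-0.59) and Dusp10 (-0.51) fell as well.

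In the TGF-β family, which signals through SMAD proteins, 9 of 38 ligands, receptors and mediators were higher and 11 lower. Tgfb2, the ligand TGF-β2, read 7.46, 7.64 and 7.71 in the S42A line, against 7.23, 7.12 and 7.0 in the wild-type line (0.49 ± 0.090, adjusted p = 0.00047). Both lay between Tw1KD at 5.71 to 5.97 and S42D at 8.56 to 8.70. Ltbp4, which tethers latent TGF-β to the matrix, read 10.93, 10.91 and 10.98 in the S42A line, against 8.85, 8.87 and 8.81 in the wild-type line (2.1 ± 0.039, 4.28-fold). The ligand gene Bmp7 read 7.08, 7.17 and 7.12 in the S42A line, against 9.87, 9.84 and 9.80 in the wild-type line (-2.71 ± 0.049, 6.56-fold lower), and 9.72 to 10.45 in the other 3 lines. The receptor gene Tgfbr1 fell (-0.24) and Tgfbr2 rose (0.15). Of 18 TGF-β response genes 3 were higher (Skil, Bhlhe40 and Ldlrad4) and 9 lower, with a median of -0.12. After quantile normalization 5 of them were called higher. The largest falls were those of Ankrd1 (-0.99), Hmox1 (-0.92) and Tgfbi (-0.62).

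**Figure D4:**
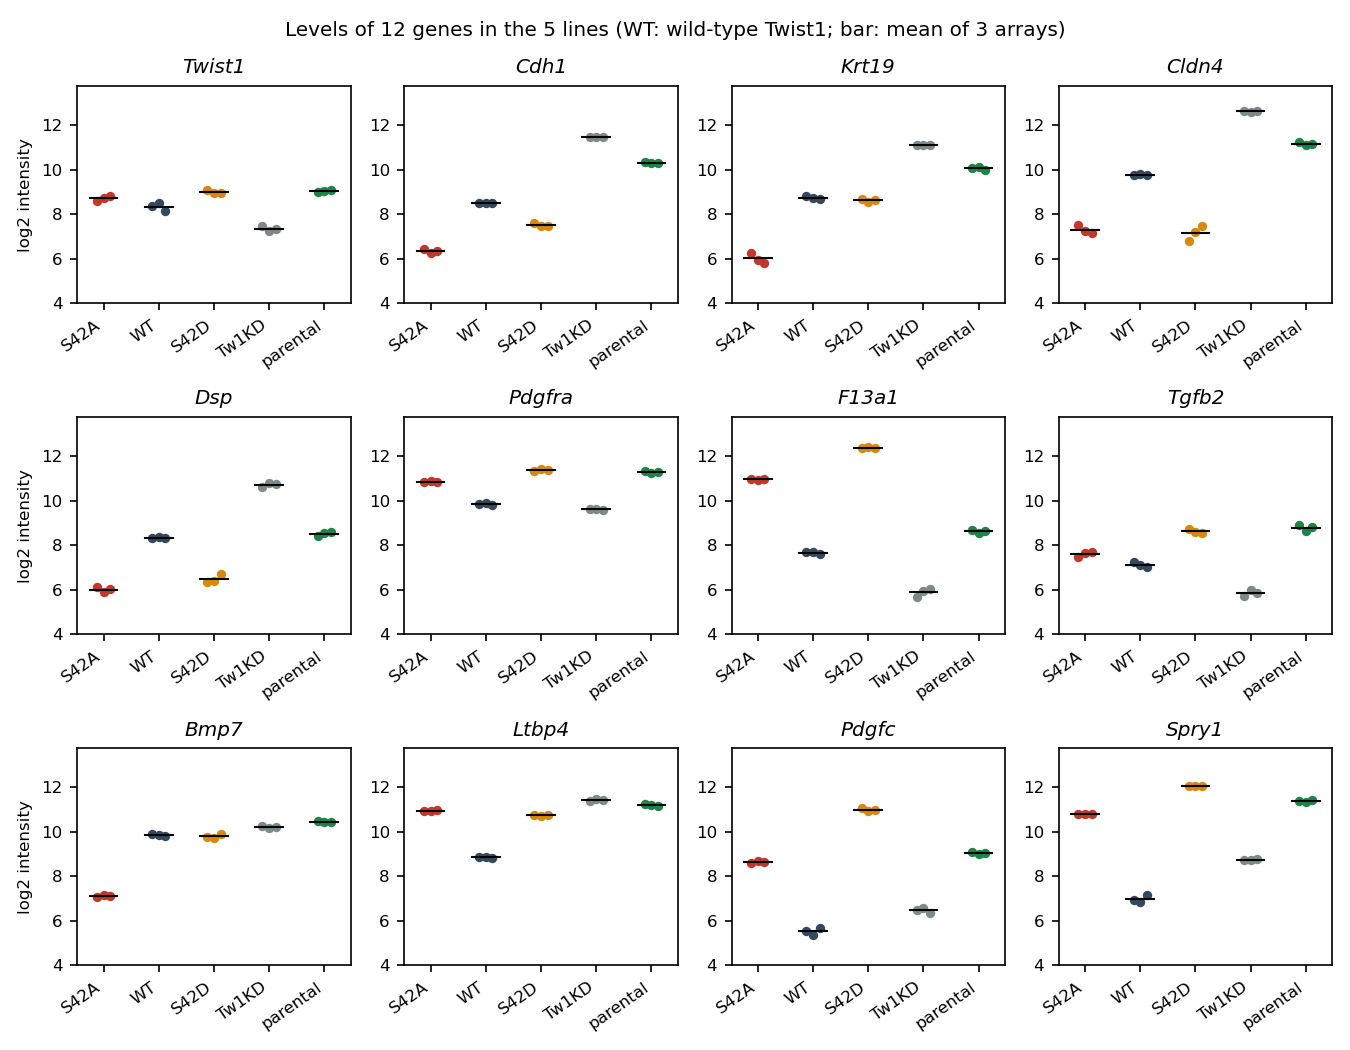
Log2 intensity on each array of the 5 lines for 12 genes of the epithelial, mesenchymal, growth factor and TGF-β lists, with a bar at the mean of 3 arrays. The S42A arrays are the lowest for Cdh1, Krt19, Dsp and Bmp7, and lie between wild type and S42D for Pdgfra, Pdgfc, F13a1 and Tgfb2.

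Secreted signals divided. Of 35 chemokines and cytokines 8 were higher (13 with array weights) and 10 lower. Il33, an alarmin, read 8.30, 8.45 and 8.49 in the S42A line, against 6.14, 5.75 and 5.70 in the wild-type line (2.55 ± 0.14). The death ligand gene Tnfsf10 (TRAIL) read 6.74, 7.09 and 6.88 in the S42A line, against 5.22, 5.14 and 5.15 in the wild-type line (1.73 ± 0.13), where it was dim. Ccl5, a T-cell attractant that interferon also induces, read 9.64, 9.77 and 9.90 in the S42A line, against 8.29, 8.28 and 8.35 in the wild-type line (1.46 ± 0.062). Lower were the monocyte attractants Ccl2, at 9.17, 9.14 and 9.30 in S42A and 10.91, 11.01 and 10.93 in wild type (-1.74 ± 0.16), and Ccl7, at 7.68, 7.90 and 7.93 in S42A and 10.15, 10.41 and 10.27 in wild type (-2.44 ± 0.11). Cxcl16 fell most, with 6.31, 5.99 and 5.74 in the S42A line, against 8.55, 8.54 and 8.51 in the wild-type line (-2.52 ± 0.11). In the inflammasome list of 11 genes Casp1 (1.51 ± 0.097), Aim2 (0.94 ± 0.10) and Gsdmd (0.84) rose, and Casp4 (-0.69 ± 0.085), Il18 (-0.60, dim in both lines), Casp12 (-0.40) and Nek7 (-0.21) fell.

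Of 30 proteases and inhibitors 10 were higher and 7 lower. Adamts1, a proteoglycan-cleaving protease, read 8.43, 8.62 and 8.61 in the S42A line, against 7.24, 7.21 and 7.09 in the wild-type line (1.38 ± 0.084). Mmp10, a stromelysin, was 1.05 ± 0.089 higher. Mmp9, a gelatinase of invading cells, read 7.10, 7.19 and 7.35 in the S42A line, against 8.66, 8.76 and 8.69 in the wild-type line (-1.49 ± 0.057), against 10.70 to 11.56 in the 3 other lines. The plasminogen activator genes Plat (-1.08 ± 0.091) and Plau (-0.76) fell. Among 32 integrins, laminins and adhesion molecules 6 rose, led by Itga8 as above and then Vcam1 (0.59), and 10 fell. The collagen receptor subunit gene Itga2 and Itgb7 both stood at -1.43, and the laminin receptor subunit gene Itga7 at -1.03.

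DNA replication genes were mostly lower. Of 29 measured 18 fell and 5 rose, with a median of -0.22, against 20.0% of all genes called in each direction. Mcm3, a subunit of the replicative helicase, read 10.78, 10.82 and 10.76 in the S42A line, against 11.88, 11.91 and 11.93 in the wild-type line (-1.12 ± 0.041, adjusted p = 5.5e-11). Cdc45, which activates the helicase, read 10.05, 10.09 and 10.07 in the S42A line, against 11.14, 11.12 and 11.09 in the wild-type line (-1.04 ± 0.038), and the genes around it on chromosome 16 had a median difference of -0.26. The clamp loader gene Rfc3 was -0.83 ± 0.073. The nucleotide enzymes Tk1 (0.59 ± 0.043) and Tyms (0.36 ± 0.048), Pole (0.32), Ccne1 (0.26) and Chaf1b (0.19) rose. The wild-type line was high for this list. It exceeded the depleted line for 27 of the 29 genes and fell below it for 1 (23.5% and 24.5% of all genes), with a median of 0.82. The S42A line exceeded the depleted line for 22 and fell below it for 2, with a median of 0.53 (22.8% and 19.7% of all genes). The S42D line was below the wild-type line for 24 and above it for 3, with a median of -0.47 (22.6% and 20.7% of all genes). Against S42D, the S42A line was higher for 14 and lower for 4, with a median of 0.20 (19.1% and 17.1% of all genes). The 27 mitosis genes were split, with 7 higher and 9 lower and a median of -0.0022. Among 21 cyclins, inhibitors and p53 targets 9 rose and 4 fell, led by Trp53inp1, a stress-response gene (0.78 ± 0.073), and Sesn2, a sestrin (-0.93). The cyclin genes Ccnd1 (0.13 ± 0.034) and Ccnd2 (0.22 ± 0.035) rose slightly. Of 25 sterol and fatty acid synthesis genes 5 rose and 9 fell, with Dhcr7 at 0.60 ± 0.042 and Ebp, the sterol isomerase, at -1.19 ± 0.062.

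**Figure D5:**
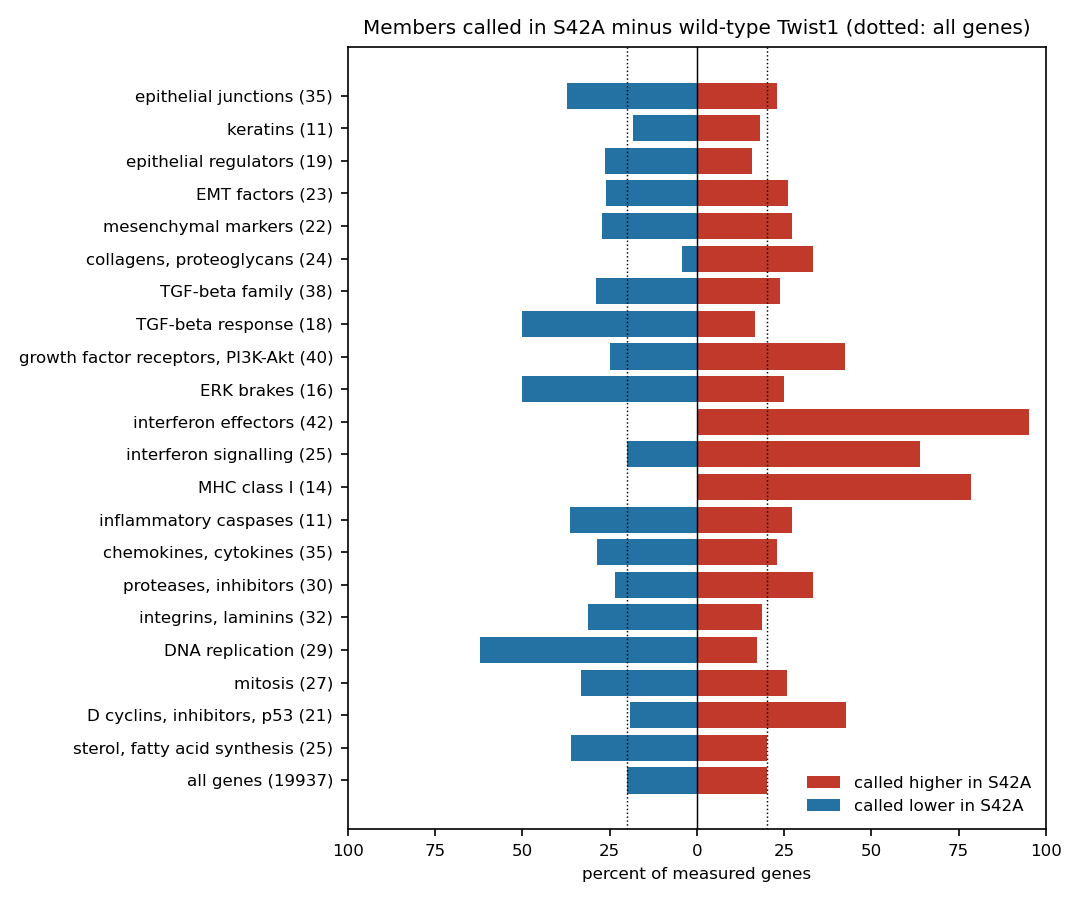
Members called higher and lower in the S42A line relative to the wild-type line, as shares of each list's measured genes. Interferon effectors have 40 of 42 higher and none lower, and DNA replication genes have 18 of 29 lower, beside 20.0% of all genes in each direction.

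Depletion of Twist1 in parental cells gives a comparison whose differences rest on none of the same arrays. The error estimate of each gene was common to both comparisons, because all arrays entered the same fit. Genes of low spread are therefore more readily called in both, and the part of this in the overlap below was not tested. Of the 7978 genes called between S42A and wild type, 4755 (59.6%) were also called between Tw1KD and parental cells, or 65.7% of the 7242 called there (36.3% of genes tested). The signs agreed for 2019 of them and were opposite for 2736. Across all genes the 2 sets of differences had a Pearson correlation of -0.092, with genes not being independent replicates. Interferon effectors were called higher for 16 of 42 and lower for 8 on depletion (19.9% and 16.4% of all genes), with a median of 0.094.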

How the data were processed

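Total RNA of 5 lines of 4T1 cells was measured on 15 arrays, 3 per line. Per the labels' protocols, 100 ng of RNA was processed with an Ambion whole-transcript kit and labelled with biotin. The deposited values are log2 intensities, 1 per probe set; the unit was read from the values. The submitters' processing notes name R 2.10.0 and affy with no role, and the background correction, normalization and summary over probes are not given in the sources used here. The array medians of the 6 arrays compared lay between 6.57 and 6.65, so a change common to all transcripts would not be seen. Precision is limited by the 3 arrays per line.

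Of 34760 probe sets, 21640 carried 1 gene symbol, 1321 several and 11799 none. Gene numbers were looked up in the RefSeq table of GRCm38.p6 for current symbols, which matched 21553 probe sets. The brightest probe set with 1 symbol represented a gene, giving 19937 genes, of which 954 had more than 1 probe set. All 15 arrays were fitted in limma 3.58.1 (R 4.3.3) with a mean per line, with no filter on dim genes and no replicate block, and the S42A minus wild-type contrast was tested 2-sided. Genes are called at an adjusted p under 0.05; errors after ± are standard errors. The labels state no pairing of the replicate numbers, and none was used. The deviations of same-numbered S42A and wild-type arrays correlated at -0.21, 0.079 and -0.29. Those of differently numbered arrays correlated at -0.14 to 0.35. So few values show no pairing but cannot show that it was absent. The procedure was also run on simulated arrays with independent noise and few changed genes. That cannot show how it performs with single lines and replicates of unknown kind.

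Genes are named by rule: the 12 largest rises and falls among called genes whose arrays do not overlap, passing over predicted and clone-named models; up to 3 called members per direction in each of 33 lists (804 entries, 754 measured); members against a list's majority where 3 or fewer; and Twist1, Cdh1, Cdh2, Snai2, Vim, Fn1, Tgfb2, Pdgfra, Ifnb1, Irf7 and Irf9 whatever their result. A few further list members, named beside these, were chosen after their values were seen. The comparison, the lists and the rule were chosen with earlier results of these data known. Alternatives were another set of arrays, scaling, filter, probe-set rule, variance model, weights, a replicate block and each array left out.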

Additional observations from a re-analysis of the deposited data

Results flagged for a closer look

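Probe sets without a gene symbol were outside the main test and also differed between the lines. Tested with all probe sets, 1816 of 11799 were called (15.4%), of which 44 were at least 2-fold higher and 112 at least 2-fold lower in the S42A line. Probe set 10602341 read 9.71, 10.02 and 9.91 in the S42A line, against 3.62, 4.85 and 4.85 in the wild-type line, a difference of 5.43. Probe set 10429564 read 9.32, 9.20 and 9.20 in the S42A line, against 3.99, 3.93 and 3.96 in the wild-type line, a difference of 5.27. Of the probe sets that fell, 10340127 read 6.31, 6.51 and 6.16 in the S42A line, against 8.95, 8.96 and 8.87 in the wild-type line (-2.60), and 10343459 read 4.02, 4.22 and 4.46, against 6.97, 6.29 and 6.48 (-2.35). The wild-type levels of 10602341 and 10429564 and the S42A level of 10343459 were dim, so the sizes of these differences are uncertain. Groups of 3 arrays were not tested for outliers.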

How the results depend on the processing

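The numbers of genes called higher and lower stayed within 1.5 times of the reported ones in all 15 alternatives. The total of 7978 became 7054 after centring each array on its median, 8032 after quantile normalization, 8247 with the 6 arrays alone and 10647 with array weights. Median centring acted on 1 side: genes called higher went from 3986 to 3051 (43.3% of those called), and genes called lower from 3992 to 4003. The even split of calls thus depends on the scaling. With it, interferon signalling members called higher went from 16 to 11 and TGF-β family members from 9 to 6. Leaving out 1 array gave 7025 to 7775. With the replicate number as a block, 7755 genes were called, and the block took the call from Col1a2 and Gstz1 among the named genes. Same-numbered arrays did not deviate together, and whether the numbers stand for a pairing is not known. The median of all differences was 0.041 as deposited and 0.0081 after median centring. Of 2915 values of 195 named genes, 2876 kept direction and side of the threshold, 35 lost their call, 4 gained a call (Cdh2 and Vim) and none reversed. Calls were lost for Col1a2, Csf1r, Erg, Gstz1, Hspa5, Mki67, Pdia4 and Wnt4, all of them differences under 0.30 in size. Array weights took the chemokine and cytokine members called higher to 13, against 8 as reported, and the keratins to 4, against 2. Quantile normalization took the TGF-β response genes called higher to 5, against 3, and 1 MHC class I gene was called lower without the dimmest 25% of genes, with an intensity trend or with array weights. The cause of these moves was not tested. After the data were seen, the median difference of the 51-gene window around each gene was subtracted: of 191 named called genes only Ywhaz turned its sign.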

Other observations

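Genes of the amino acid and endoplasmic reticulum stress responses were mostly lower in the S42A line. Of 25 measured 16 fell and 4 rose, with a median of -0.18, against 20.0% of all genes in each direction. Chac1, a glutathione-degrading target of ATF4, read 9.83, 9.96 and 10.05 in the S42A line, against 11.30, 11.35 and 11.25 in the wild-type line (-1.35 ± 0.050). The transcription factor genes Atf4 (-0.57 ± 0.049), Ddit3 (-0.78 ± 0.066) and Atf3 (-0.84) fell with it, and Edem1 (0.24), Pdia4 (0.16), Hspa5 (0.15) and Asns (0.10) rose. After median centring 1 member of the list was called higher. Among 28 genes of hypoxia and glycolysis 14 rose and 6 fell, with a median of 0.15. Car12, a carbonic anhydrase, read 8.66, 8.75 and 8.77 in the S42A line, against 6.94, 7.08 and 6.96 in the wild-type line (1.73 ± 0.049), and the mitophagy gene Bnip3 (0.77) and the enolase gene Eno2 (0.75) rose. Aldoc, an aldolase, read 6.67, 6.77 and 6.37 in the S42A line, against 8.94, 9.07 and 9.02 in the wild-type line (-2.41 ± 0.079). Adm, the vasodilator peptide adrenomedullin, fell (-2.02 ± 0.12) beside a rise of Calcrl, a part of its receptor (2.68 ± 0.084, dim in the wild-type line). Of the partners of Calcrl, Ramp1 fell (-1.98 ± 0.071), and Ramp2 and Ramp3 were not called. The 20 angiogenic genes were split, 5 higher and 5 lower. Angpt1, which encodes a ligand of the Tie2 receptor, read 10.21, 10.23 and 10.27 in the S42A line, against 7.04, 7.03 and 6.92 in the wild-type line (3.23 ± 0.091), and Nrp1, a VEGF and semaphorin co-receptor, was 1.79 ± 0.051 higher.

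Beside the rise of Ppargc1a, the list of mitochondrial regulators had 7 of 19 members higher and 8 lower. Polg, the mitochondrial DNA polymerase (0.46 ± 0.051), and Esrra, a nuclear receptor partner of PGC-1α (0.44), rose. Ppargc1b (-0.69 ± 0.041), the fatty acid oxidation gene Cpt1a (-0.63 ± 0.050) and Tfam, a mitochondrial transcription factor (-0.44), fell. Of 20 genes of branched-chain amino acid and creatine metabolism 11 rose and 5 fell. The falls were Gatm and Bckdhb, described above, with Dbt, another subunit of the same dehydrogenase (-1.53 ± 0.051), Hibch (-0.62) and Ivd (-0.42). Gamt, the enzyme after Gatm in creatine synthesis, rose (1.13 ± 0.049), as did the aminotransferase gene Bcat2 (0.81 ± 0.056). Among 16 glutathione transferases 7 rose, led by Gstm1 (1.47 ± 0.054), and 3 fell, led by Gstm5, dim in the S42A line; close relatives in this family make single members uncertain. Of 18 mammary stem and lineage genes 6 rose and 2 fell, with Stat5a (0.85 ± 0.044) and the estrogen receptor gene Esr1 (0.82 ± 0.055) higher and the polycomb gene Bmi1 lower (-0.97 ± 0.059). Of 25 genes of the WNT and IGF axis 2 rose (1 without S42A replicate 1 or 2, or without wild-type replicate 1 or 2) and 6 fell, led by Igf2r (-0.85) and Wnt10a (-0.84). Of 12 housekeeping genes 5 rose and 2 fell, with Gusb at 0.81 and Tbp at -0.65.

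Called genes were unevenly spread over chromosomes. On chromosome 7, 616 of 1738 genes were higher and 57 lower in the S42A line, with a median difference of 0.13, and on chromosome 1, 77 of 1126 were higher and 454 lower, with a median of -0.053. In runs of neighbouring genes the shift was larger. On chromosome 1 between Bag2 and Mitd1, 27 of 41 genes were lower and 2 higher, with a median of -0.57. On chromosome 16 between Thap7 and Dgcr8, 17 of 26 were lower and 1 higher (median -0.52), and between Olfr161 and Alg1, 30 of 40 were higher and none lower (median 0.40). The S42D line differed from wild type in that last run by a median of 0.79. Between 0610012G03Rik and Osbpl11 on chromosome 16, 20 of 29 genes were lower and 1 higher (median -0.60). On chromosome 2 between Fam171a1 and Echdc3, 19 of 28 were lower and 1 higher (median -0.50). There the wild-type line differed from the depleted line by a median of 0.55, and the S42A line by -0.0013. Between Thap7 and Dgcr8 these medians were 0.35 and -0.19, and between Bag2 and Mitd1 0.042 and -0.26. These runs were found by searching 51-gene windows of these same data.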
